A study of Mus musculus with 5 samples.

Results

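The deposited table of H3K9me3 regions in mouse CD8+ T cells held 804 autosomal regions of 800 bp or more. They were chosen by width alone, as the regions on chromosomes 1 to 19 whose listed end lay at least 800 bp past the start. They made up 1.82% of the 44132 autosomal regions and stood among 46409 regions in all. The width of a region comes from the authors' peak calling on reads of these same libraries. The sources used here do not give how each library weighed in that calling, so width and read density are descriptions and were not tested.

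The study asked how H3K9me3 differed after Prdm12 was targeted. Prdm12 belongs to the PRDM family of nuclear zinc finger proteins and is best known in pain-sensing neurons. CD8+ T cells from the spleen of OT-I:Cas9 mice, which carry a transgenic T cell receptor against an ovalbumin peptide and Cas9, received Cas9 ribonucleoprotein with 300 pmol of guide and 300 pmol of Cas9. The 2 sgPrdm12 libraries (genotype Prdm12-ko) came from cells given a guide against Prdm12, and the 2 sgNTC libraries (genotype Prdm12-wt) from cells given a non-targeting guide. Both groups carried the transgenes, were electroporated and were left to recover for 72 hours. The sgPrdm12 cells were an edited population and not a germline knockout. An IgG library was not analysed here. The labels do not say whether replicates came from separate animals, so a p-value covers no more than the spread among these 4 libraries, which may be technical.

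H3K9me3 is a histone mark of compacted, silent chromatin. It is laid down by methyltransferases such as Setdb1 and Suv39h1 and is read by heterochromatin protein 1, which lets the mark spread from a nucleation site over neighbouring nucleosomes. It is known for covering satellite and transposon sequence, and it also lies over clusters of zinc finger, protocadherin and olfactory or vomeronasal receptor genes. In CUT&Tag an antibody to the mark directs a protein A-Tn5 transposase, which cuts and tags the DNA there, and each region's value is the number of reads counted in it. H3K9me3 over a gene does not measure its RNA, so the labelled cell type could not be checked from these regions. None of the 8 CD8 T cell, 4 B cell, 4 myeloid, 2 NK and 3 erythroid marker genes listed for that purpose had a broad region within 5 kb.

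The broad regions were still short stretches of chromatin. Their median width was 939.5 bp, with quartiles of 857 and 1068 bp, against a median of 279 bp in the 43328 narrower autosomal regions. Of the 804, 283 reached 1000 bp, 32 reached 1500 bp and 6 reached 2000 bp, and the widest measured 3521 bp. Together they covered 0.810 Mb, which is 5.60% of the 14.5 Mb covered by all autosomal regions. At the threshold, the region at chromosome 16, 60935150 to 60935950, and regions over Pcdhb11 and Tmem132c measured exactly 800 bp. Their counts were 64 and 15 reads at the chromosome 16 region, 95 and 49 at Pcdhb11 and 88 and 60 at Tmem132c in sgPrdm12-1 and sgPrdm12-2, and 30 and 7, 25 and 19, and 16 and 28 in sgNTC-1 and sgNTC-2. Just outside, 3 regions of 799 bp, at chromosome 13, 48366466 and 105550744, and at chromosome 15, 83738209, held 31 to 104 reads in sgPrdm12 libraries and 12 to 36 in sgNTC libraries.

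Most broad regions lay outside genes. A protein-coding gene span was overlapped by 240 of them (29.9%, against 27.4% of narrower autosomal regions) and another kind of gene by 86 (10.7%, against 9.44%), which left 478 intergenic (59.5%, against 63.2%). A protein-coding gene lay within 5 kb of 35.8% of broad and 31.6% of narrower regions. The nearest other region lay at a median distance of 10300 bp for broad and 11612 bp for narrower regions. None overlapped a miRNA hairpin of the RefSeq table, which 6 narrower regions did. The share of a chromosome's regions that were broad ran from 1.24% on chromosome 19 (9 regions) and 1.39% on chromosome 8 to 3.06% on chromosome 11 (54 regions). Chromosomes 4 and 1 held the most, with 62 and 60. A start within the first 4 Mb of the coordinates, where mouse chromosomes begin with the centromere, was found for 28 broad regions (3.48%), against 311 narrower ones (0.718%). Of those 28, 10 lay over Sfi1 on chromosome 11 and 4 in 32.8 kb of chromosome 9, so they are not 28 separate places. These shares are descriptions.

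Promoters were a small part of this set. A promoter window, 250 bases before to 50 after a gene's start in the RefSeq table for GRCm38.p6, was overlapped by 19 broad regions (2.36%, against 1.38% of narrower regions). They met 25 windows of 22 genes. Of the windows that lay wholly inside a broad region, 4 are shown because they differ widely in CG content: the glutathione transferase gene Gstp3 (chr19:4059398-4059697, minus strand), the cytochrome P450 gene Cyp2j11 (chr4:96348631-96348930, minus strand), the DEAD-box helicase gene D1Pas1 (chr1:186967166-186967465, plus strand) and the zinc finger gene Zfp996 (chr12:18387241-18387540, plus strand). Each runs 5′ to 3′ on the strand of its gene, with every CG dinucleotide in capitals.
Gstp3: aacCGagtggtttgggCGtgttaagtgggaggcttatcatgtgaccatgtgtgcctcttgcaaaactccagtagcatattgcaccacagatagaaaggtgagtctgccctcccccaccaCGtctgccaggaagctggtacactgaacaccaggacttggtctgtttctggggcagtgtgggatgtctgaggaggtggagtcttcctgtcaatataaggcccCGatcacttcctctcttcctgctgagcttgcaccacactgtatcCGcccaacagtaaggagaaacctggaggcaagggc
Cyp2j11: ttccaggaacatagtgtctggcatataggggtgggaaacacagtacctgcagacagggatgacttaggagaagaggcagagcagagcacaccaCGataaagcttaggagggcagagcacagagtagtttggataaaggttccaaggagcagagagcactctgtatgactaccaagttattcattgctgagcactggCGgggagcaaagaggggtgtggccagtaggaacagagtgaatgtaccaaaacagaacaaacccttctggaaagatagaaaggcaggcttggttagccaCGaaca
D1Pas1: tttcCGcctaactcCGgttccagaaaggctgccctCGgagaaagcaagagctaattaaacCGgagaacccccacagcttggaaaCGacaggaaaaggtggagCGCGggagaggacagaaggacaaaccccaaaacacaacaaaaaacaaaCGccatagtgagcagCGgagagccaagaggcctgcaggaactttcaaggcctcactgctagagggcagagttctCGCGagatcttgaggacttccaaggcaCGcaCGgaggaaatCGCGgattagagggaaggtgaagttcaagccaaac
Zfp996: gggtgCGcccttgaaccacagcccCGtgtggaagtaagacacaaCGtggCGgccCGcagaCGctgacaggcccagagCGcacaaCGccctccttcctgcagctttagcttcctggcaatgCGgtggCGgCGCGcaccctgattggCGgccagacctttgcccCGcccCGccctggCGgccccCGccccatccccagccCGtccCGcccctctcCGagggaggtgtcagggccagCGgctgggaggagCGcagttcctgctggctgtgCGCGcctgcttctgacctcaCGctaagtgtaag

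The capitals mark 5 CG in Gstp3, 3 in Cyp2j11, 15 in D1Pas1 and 25 in Zfp996, in windows of 300 bases. The motif searched was CG, which reads the same on both strands. It was present in 25 of the 25 windows inside or across broad regions and in 94.8% of the 31396 autosomal promoter windows of the table. The median was 15 CG per window for those met by broad regions and 7 for all, and 60.0% against 44.0% had at least 10. CG is the letter pair at which DNA methylation occurs, which was not measured here.

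The region over the Gstp3 promoter, 1466 bp at chromosome 19, 4058248 to 4059714, held 222 and 115 reads in sgPrdm12-1 and sgPrdm12-2 and 27 and 22 in sgNTC-1 and sgNTC-2. The D1Pas1 region, 1245 bp at chromosome 1, 186966999 to 186968244, held 138 and 109 reads in sgPrdm12 and 26 and 18 in sgNTC. Over Zfp996, 1021 bp at chromosome 12, 18387153 to 18388174, held 119 and 56.8 reads per kb in sgPrdm12 and 25.5 and 29.4 in sgNTC, and the 826 bp at Cyp2j11 held 77.5 and 46.0 reads per kb in sgPrdm12 and 26.6 and 41.2 in sgNTC. On the scale that corrects for library size (below), the sgPrdm12 libraries were both above the sgNTC libraries at Gstp3 and D1Pas1, both below at Cyp2j11, and overlapped them at Zfp996. Of the 19 regions at promoters, 0 passed the test of the difference, and their log2 fold changes ran from -0.80 to 1.19 with a median of 0.25. Over all 578 tested regions at promoters, 0 were called higher and 16 lower (2.77%), and the median was -0.38.

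Per kb of width, broad and narrower regions carried about the same read density. Summed over all regions the libraries held 2353807 and 1396201 reads in sgPrdm12-1 and sgPrdm12-2 and 843673 and 1060646 in sgNTC-1 and sgNTC-2. The median broad region held 104.5 and 65 reads in sgPrdm12 and 22 and 26 in sgNTC. That is 108 and 67.4 reads per kb in sgPrdm12-1 and sgPrdm12-2 and 22.3 and 26.5 in sgNTC-1 and sgNTC-2. Narrower regions had medians of 110 and 56.5 reads per kb in sgPrdm12 and 24.4 and 28.6 in sgNTC. The quartiles of the broad regions were 86.1 to 138 and 51.2 to 88.5 reads per kb in sgPrdm12 and 15.5 to 31.4 and 18.4 to 36.2 for the sgNTC libraries. So the larger count of a broad region went with its width, and broad and narrower densities overlapped over most of their range in each library. All 804 passed the filter on low counts, yet 88 of them had 10 reads or fewer in sgNTC-1 and 63 in sgNTC-2, where none did in either sgPrdm12 library.

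**Figure D1:**
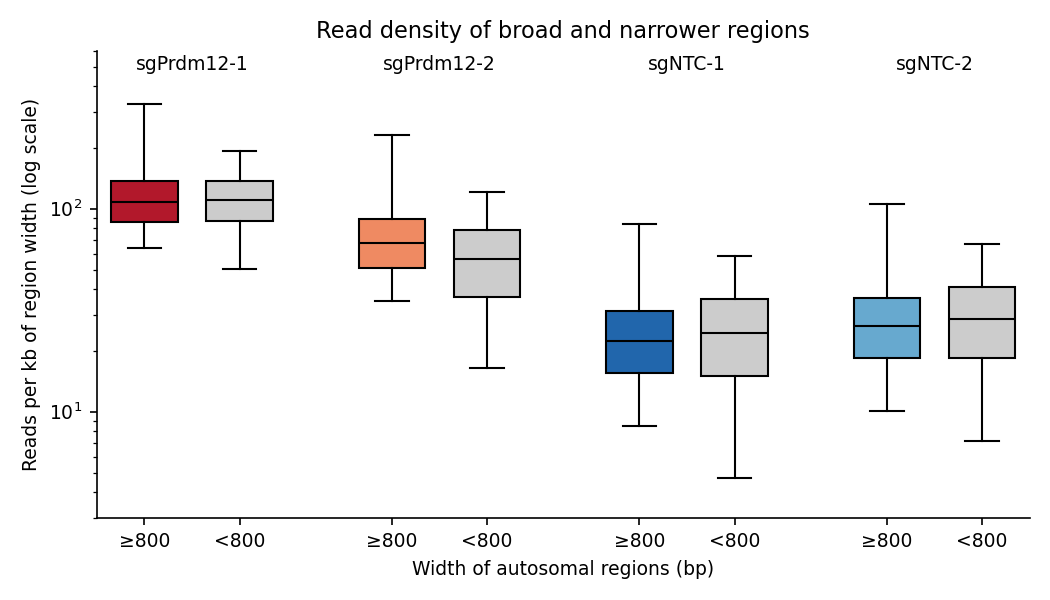
Reads per kb of region width (log axis) in each library, for autosomal regions of 800 bp or more (coloured) and under 800 bp (grey). Boxes show quartiles with the median as a line, and whiskers run from the 5th to the 95th percentile. Broad and narrower boxes sit at similar heights within each library, for example at medians of 108 and 110 reads per kb in sgPrdm12-1 and 22.3 and 24.4 in sgNTC-1.

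A handful of regions held most of the reads. The 804 regions took 366882 and 255159 reads in sgPrdm12-1 and sgPrdm12-2 and 186894 and 240867 in sgNTC-1 and sgNTC-2. These are 15.6% (Wilson 95% interval 15.5 to 15.6) and 18.3% (18.2 to 18.3) of the reads in sgPrdm12, and 22.2% (22.1 to 22.2) and 22.7% (22.6 to 22.8) in sgNTC. The intervals cover counting error only. Both sgPrdm12 shares lay below both sgNTC shares, and the difference between the group means was -5.50 percentage points, a description, since 2 libraries against 2 cannot give an exact two-sided permutation p under 0.33. The 5 most covered broad regions alone held 51.0% and 52.8% of the reads in broad regions in sgPrdm12, and 69.4% and 72.2% in sgNTC. Once the 10 most covered regions of the whole table, 6 of them broad, were left out of the sum and the total, the shares were 8.68% and 10.3% in sgPrdm12 and 9.37% and 9.01% in sgNTC. The groups then overlapped and the difference was 0.28 points.

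The densest regions came from a few places. The 8 with the highest read density after each library was scaled to its total count, averaged over libraries, were 3 regions at the start of chromosome 9, an intergenic one on chromosome 14, 2 in the lncRNA gene 2700054A10Rik on chromosome 17, and 2 at ribosomal RNA-related genes on chromosome 17. At chromosome 9, 3023412 to 3024666, there were 60856 and 44207 reads per kb in sgPrdm12-1 and sgPrdm12-2 and 47690 and 68070 in sgNTC-1 and sgNTC-2. In 2700054A10Rik, at 13551824 to 13553149, the values were 27263 and 22472 reads per kb in sgPrdm12 and 5607 and 6420 in sgNTC. At the other end, the 4 sparsest were intergenic, on chromosomes 1, 2 and 13. The sparsest of all, at chromosome 13, 65681742 to 65682711, had 45.4 and 44.4 reads per kb in sgPrdm12 and 4.13 and 7.22 in sgNTC. The sources used here do not give how reads that match several places in the genome were counted, so values at ribosomal and other repeated sequence may stand for many copies.

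The widest region overlapped Rn18s-rs5, a pseudogene of 18S ribosomal RNA, at chromosome 17, 39843144 to 39846665. It held 18970 and 13226 reads in sgPrdm12-1 and sgPrdm12-2 and 15684 and 16598 in sgNTC-1 and sgNTC-2. The second in width, 2325 bp, lay 1567 bp from AY761185 on chromosome 8, with 256 and 167 reads per kb in sgPrdm12 and 52.0 and 55.9 in sgNTC. The third, 2309 bp at chromosome 1, 85591085 to 85593394, overlapped both Sp110 and Sp140, which encode related nuclear body proteins. It held 1887 and 1067 reads in sgPrdm12 and 603 and 640 in sgNTC. A region of 2193 bp near the start of chromosome 4, from 3081729, had 1725 and 1230 reads in sgPrdm12 and 497 and 621 in sgNTC. The fifth, 2151 bp in Prune2, had 277 and 196 reads in sgPrdm12 and 44 and 55 in sgNTC. Gm20590, a pseudogene on chromosome 13, carried 2028 bp with 3110 and 2219 reads in sgPrdm12 and 703 and 878 in sgNTC. The remaining 4 of the 10 widest lay at Gm29944 (1950 bp), LOC108167320 (1815 bp), Matk (1766 bp) and Gm24295 (1762 bp). They held 133 to 297 reads in sgPrdm12 libraries and 24 to 73 in sgNTC libraries. Width and depth were thus loosely tied even here: per kb, the 10 widest ran from 73.3 to 5388 in sgPrdm12 and from 12.8 to 4714 in sgNTC.

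Among protein-coding genes, the 15 widest regions lay over Sp110, Prune2, Matk and 12 others. Matk is a kinase that acts on the inhibitory tyrosine of Src-family kinases, and its region held 297 and 161 reads in sgPrdm12 and 54 and 39 in sgNTC. Plk5, of the polo-like kinase family, carried 1482 bp with 289 and 236 reads in sgPrdm12 and 41 and 53 in sgNTC. Dock1, an activator of the small GTPase Rac, carried 1447 bp with 290 and 231 reads in sgPrdm12 and 66 and 67 in sgNTC. Rsph3b, a component of the radial spokes of cilia, carried 1474 bp with 82.8 and 40.0 reads per kb in sgPrdm12 and 7.46 and 7.46 in sgNTC. Pcbd2, a dimerization cofactor of HNF1, carried 1485 bp with 156 and 85 reads in sgPrdm12 and 17 and 36 in sgNTC. The others were Gm7247 (1758 bp), Gm21814 (1741 bp), Zfp992 (1721 bp), 1600014C10Rik (1615 bp), Zfp978 (1562 bp), Sfi1 (1506 bp), Gstp3 (1466 bp) and Tmem117 (1466 bp). None of these 15 passed the test of the difference. Few regions of any kind did: 0.110% of all tested regions were higher and 0.377% lower.

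Prdm12 itself had a broad region close by, 3376 bp outside its span at chromosome 2, 31659171 to 31659999. It was looked up because it is the targeted gene and not by the naming rule. It held 110 and 95 reads in sgPrdm12-1 and sgPrdm12-2 and 23 and 21 in sgNTC-1 and sgNTC-2. Scaled for library size (CPM, explained below) these were 39.0 and 61.9 in sgPrdm12 and 33.5 and 26.8 in sgNTC, so both sgPrdm12 libraries were above both sgNTC ones. The log2 fold change was 0.73 with a standard error of 0.38 and did not pass (edgeR, adjusted p = 0.799). Reads of H3K9me3 there do not measure whether the gene was edited.

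Gene families that sit in clusters under this mark were counted by name. Zinc finger genes took 20 broad regions over or near 14 genes, 2.49% of the set against 0.785% of narrower regions. Their log2 fold changes ran from -0.31 at a region in Zfp993 to 1.41 at Zfp867, with a median of 0.42, and 0 of 20 passed. Over all 312 tested regions at zinc finger genes the median was 0.18, with 0.641% called higher and 0.321% lower. Zfp867 held 145 and 87 reads in sgPrdm12 and 10 and 20 in sgNTC (edgeR, adjusted p = 0.101). Clustered protocadherin genes, which encode neural adhesion proteins, took 9 (1.12% against 0.118%), vomeronasal and taste receptor genes 9 (1.12% against 0.542%) and olfactory receptor genes 6 (0.746% against 1.02%). Their median log2 fold changes were 0.12, -0.01 and 0.12, against 0.03, -0.03 and -0.20 over all tested regions of each family. In each family 0 passed, among the broad regions and among all tested ones. Genes known only by predicted or clone names took 179 (22.3% against 14.2%). Members of these families resemble each other in sequence, so reads may have been split or shared among copies.

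Broad regions stood close together in places: 163 had another one within 100 kb. Of the stretches that linked 3 or more at such gaps, up to 8 with the most regions were taken. The longest chain, 10 regions over 67.3 kb of chromosome 11 from 3132637 to 3199929, lay within Sfi1, which encodes a centrin-binding protein of the centrosome. Its reads summed to 17252 and 10558 in sgPrdm12-1 and sgPrdm12-2 and 6970 and 8221 in sgNTC-1 and sgNTC-2. Reads per kb ran from 1112 to 1893 in sgPrdm12-1, 600 to 1210 in sgPrdm12-2, 421 to 794 in the first sgNTC library and 491 to 1001 in the second. Every one of the 10 had a log2 fold change below 0, from -1.31 to -0.14 with a median of -0.64. Both sgPrdm12 libraries lay below both sgNTC libraries in CPM at each, as in 16.4% of all tested regions. The 10 are neighbouring pieces of 1 locus counted in the same 4 libraries, so they are not separate observations. Only the last in the chain, 3198936 to 3199929, passed the test. That direction rests on the scaling: with the authors' constants the median of the 10 was 0.38, and with total counts -0.07.

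**Figure D2:**
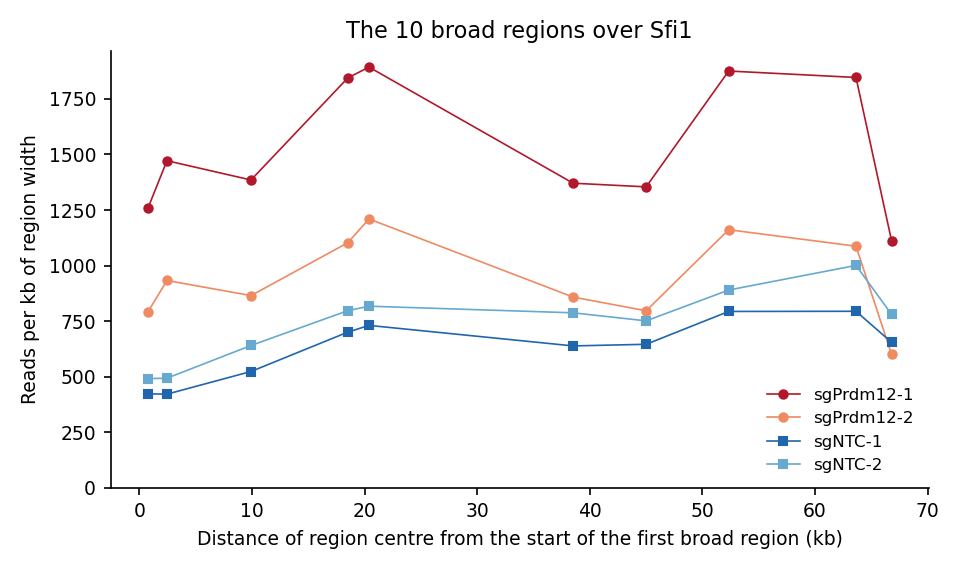
Reads per kb of width (linear axis from 0) at the 10 broad regions over Sfi1, against the distance in kb of each region's centre from the start of the first, with 1 line per library. The sgPrdm12-1 line lies highest at each region, as its library was the deepest, and both sgNTC lines lie above sgPrdm12-2 at the last region, where sgPrdm12-2 has 600 and the sgNTC libraries 655 and 780 reads per kb.

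The next chain was 7 regions over 127 kb of chromosome 18, from 37296277 to 37423776, at Pcdhb2, Pcdhb3, Pcdhb6, Pcdhb8, Pcdhb9, Pcdhb10 and Pcdhb11. Their reads summed to 755 and 489 in sgPrdm12 and 147 and 183 in sgNTC. Log2 fold changes ran from 0.09 to 0.93, with a median of 0.27, and 0 passed. On chromosome 4, 4 regions in 48.6 kb over Zfp978 summed to 700 and 459 reads in sgPrdm12 and 132 and 172 in sgNTC, with a median log2 fold change of 0.46. On chromosome 2, 2 regions in Pigt, a subunit of the enzyme that attaches GPI anchors, and 1 near Gm36090 summed to 391 and 268 reads in sgPrdm12 and 45 and 89 in sgNTC. Their median log2 fold change was 1.29, and none passed (edgeR, adjusted p = 0.206 and 0.251 at Pigt). On chromosome 8, 3 regions lay beside 5S ribosomal RNA genes, at n-R5s120, Rn5s-ps1 and n-R5s146, and summed to 434 and 332 reads in sgPrdm12 and 118 and 128 in sgNTC. Another 5 on chromosome 1, near Rpl19-ps1 and in Gm38510, and 3 on chromosome 2, near AA467197 and the zinc transporter gene Slc30a4, had median log2 fold changes of 0.02 and 0.60. The eighth chain, at the start of chromosome 9, is described with the lower regions.

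For the comparison of groups, counts were put on the TMM scale, which sets the bulk of all regions equal between libraries, and differences are log2 fold changes of sgPrdm12 over sgNTC. On that scale, CPM is the count for each 1000000 reads of corrected library size. The median broad region had 37.0 and 42.4 CPM in sgPrdm12-1 and sgPrdm12-2 and 32.1 and 33.2 in sgNTC-1 and sgNTC-2. Its log2 fold change was 0.30 (quartiles -0.04 and 0.67), against -0.01 (-0.42 and 0.44) over all 37390 tested regions. In batch 1, which holds replicate 1 of both groups, the median was 0.26, and in batch 2 it was 0.35. Of the broad regions 73.4% were above 0, against 49.2% of all. A different share of cells with the mark and a different amount of it per cell cannot be told apart in such pooled cells. The median standard error of a broad region was 0.38, larger than the median log2 fold change of 0.30. Between replicates of a group, a broad region differed by a median of 0.29 on the log2 scale in sgPrdm12 and 0.42 in sgNTC.

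Among autosomal regions that passed the filter on low counts, the median log2 fold change was higher in each wider class. The filter kept 2158 of the 3645 regions under 200 bp and all of those of 800 bp or more. It was -0.20 under 200 bp, -0.09 from 200 to 300 bp, 0.01 from 300 to 400 bp, 0.10 from 400 to 600 bp and 0.16 from 600 to 800 bp. It reached 0.25 in the 521 regions from 800 to 1000 bp (0.21 in batch 1 and 0.31 in batch 2) and 0.40 in the 283 of 1000 bp or more (0.33 and 0.44). Median counts grew along with it, to 133 and 84 in sgPrdm12 and 28 and 31 in sgNTC in the widest class, against 25 and 9 in sgPrdm12 and 5 and 6 in sgNTC under 200 bp. The part that peak calling on the deeper sgPrdm12 libraries has in this order was not tested. The level depended on the scaling. Each scaling applies 1 factor per library, which moves all regions nearly alike, so the gap to other regions could hardly change. With DESeq2 size factors, total counts and the authors' constants, the median over all tested regions was -0.06, 0.56 and 1.00 and that of the broad regions 0.26, 0.87 and 1.32, a gap of 0.31 to 0.32 on each. Without sgPrdm12-2 the gap was 0.12, from a broad median of 0.13.

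**Figure D3:**
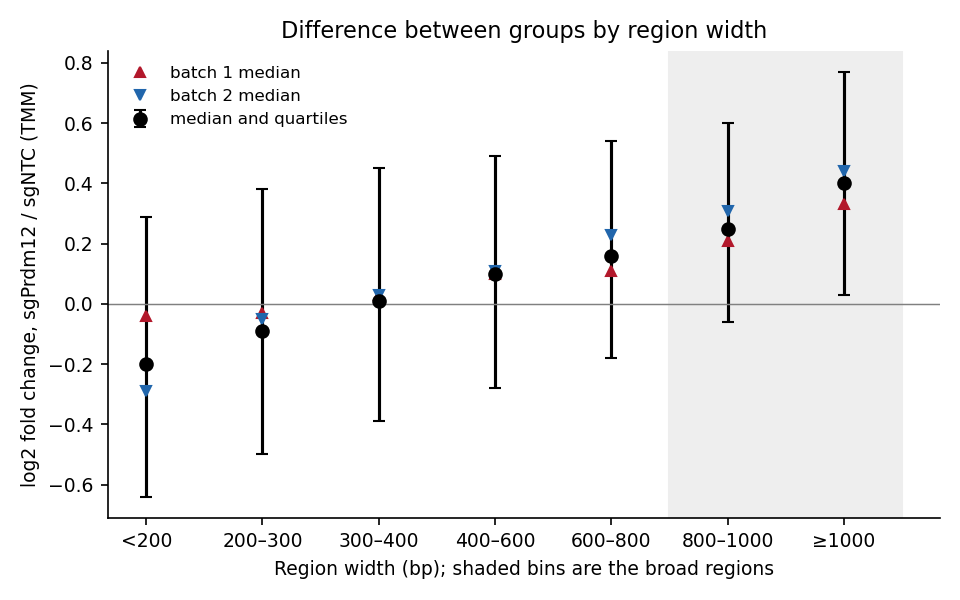
Median log2 fold change of sgPrdm12 over sgNTC by region width, with bars from the lower to the upper quartile of regions and triangles for the medians within batch 1 and batch 2. Medians go from -0.20 under 200 bp to 0.40 at 1000 bp or more, and the quartile bars of all classes overlap.

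In 351 broad regions (43.7%) both sgPrdm12 libraries lay above both sgNTC libraries in CPM, where 20.1% of all tested regions did. In 81 (10.1%) both lay below, against 16.4% of all. At an unadjusted p under 0.05, 181 broad regions differed, 151 of them higher, among 2399 of all regions, 1243 of them higher. After Benjamini-Hochberg adjustment over all tested regions, edgeR's quasi-likelihood test called 10 broad regions higher in sgPrdm12 (1.24%), against 0.110% of all regions. It called 13 lower (1.62%), against 0.377% of all. Regions with more reads are more easily called, and the counts of broad regions were 3 to 4 times those of narrower ones in each library. Without sgPrdm12-1 the calls numbered 17 higher and 16 lower, and without sgPrdm12-2 2 and 18. Without sgNTC-1 or without sgNTC-2 they were 1 and 0. Each of these fits leaves 1 library in a group, which is assumed to vary like the other group.

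**Figure D4:**
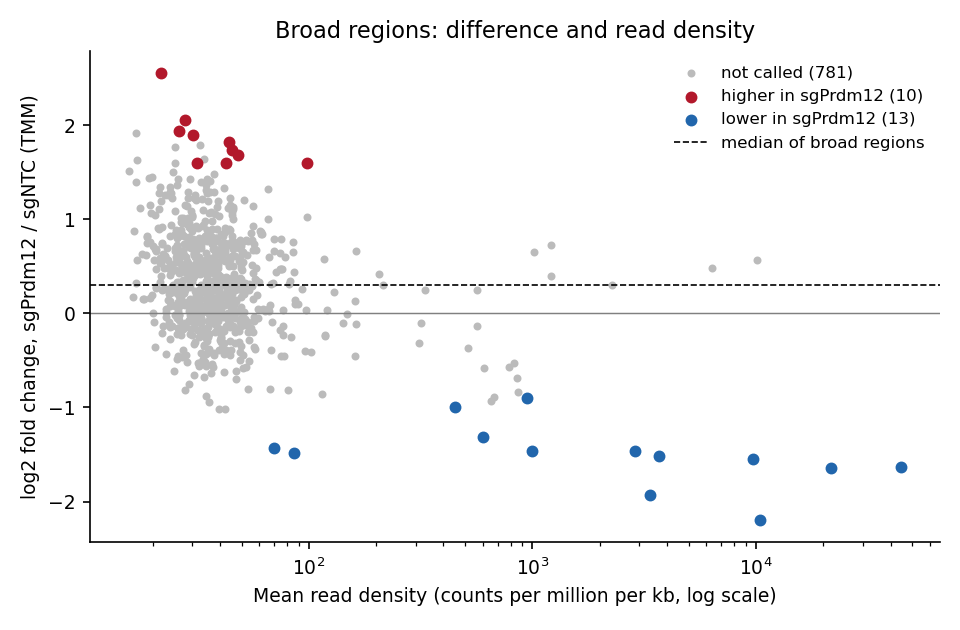
Log2 fold change of sgPrdm12 over sgNTC against mean read density (reads per kb with each library scaled to 1000000 reads, log axis) for the 804 broad regions, with 10 called higher in red, 13 called lower in blue and 781 not called in grey. The dashed line is the median of 0.30. The red points stand at low density, and most of the blue ones at high density.

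The 10 higher regions were not among the deep ones, and all had a mean of 500 reads or fewer. Flg2, which encodes a filaggrin-family protein of the skin barrier, was the deepest, at chromosome 3, 93205524 to 93206688. It held 423 and 269 reads in sgPrdm12-1 and sgPrdm12-2 and 43 and 35 in sgNTC-1 and sgNTC-2. In CPM it averaged 163 ± 17.9 in sgPrdm12 and 53.7 ± 12.7 in sgNTC (SD, n = 2 each), with no overlap. The log2 fold change was 1.60 with a standard error of 0.32 (edgeR, adjusted p = 0.00164), and batch 1 and batch 2 alone gave 1.24 and 1.94.

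About 2 Mb before it on the same chromosome, 1184 bp in S100a7l2, of the S100 family of calcium-binding proteins, held 70.9 and 102 reads per kb in sgPrdm12 and 6.76 and 11 in sgNTC. It differed by 1.89 ± 0.44 on the log2 scale (SE; edgeR, adjusted p = 0.0160). Nxn encodes nucleoredoxin, of the thioredoxin family, and its region at chromosome 11, 76296174 to 76297252, held 208 and 99 reads in sgPrdm12 and 8 and 21 in sgNTC. Here the difference was 1.82 ± 0.39 (SE; edgeR, adjusted p = 0.00529). Fcgbp, which encodes a mucus protein that binds the Fc part of IgG, held 101 and 124 reads in sgPrdm12 and 14 and 12 in sgNTC at chromosome 7, 28097657 to 28098483. Its log2 fold change of 1.69 split into 0.77 in batch 1 and 2.30 in batch 2 (edgeR, adjusted p = 0.0277). The fifth in a gene, 0610010F05Rik at chromosome 11, 23571571 to 23572656, held 95 and 90 reads in sgPrdm12 and 8 and 8 in sgNTC, with a log2 fold change of 2.05 ± 0.46 (SE; edgeR, adjusted p = 0.00953).

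The other 5 higher regions were intergenic, 3 of them within 5 kb of a gene. One lay 1837 bp from Slfn2, a Schlafen gene known for its part in T cell quiescence, at chromosome 11, 83072515 to 83073554. It held 113 and 65 reads in sgPrdm12 and 0 and 16 in sgNTC, and its difference of 1.94 ± 0.51 (SE; edgeR, adjusted p = 0.0489) was 1.01 in batch 2, where both libraries had reads. Another lay 2426 bp from the kinase gene Dyrk1a, with 123 and 109 reads in sgPrdm12 and 9 and 16 in sgNTC and a log2 fold change of 1.74. The third lay 3804 bp from Il10rb, which encodes a chain of the interleukin-10 receptor. It held 147 and 86 reads in sgPrdm12 and 16 and 10 in sgNTC, and its log2 fold change was 1.59 (edgeR, adjusted p = 0.0403). The remaining pair, at chromosome 17, 55173637 to 55174457, and chromosome 14, 106721202 to 106722682, had 80 and 43 and 133 and 134 reads in sgPrdm12, and 2 and 5 and 17 and 15 in sgNTC. The chromosome 17 region had the largest log2 fold change of any broad region, 2.55 ± 0.61 (SE; edgeR, adjusted p = 0.0193), on 7 sgNTC reads in all. The filter on low counts asks for enough reads in any 2 libraries. This region, the one near Slfn2 and 0610010F05Rik met it through the sgPrdm12 libraries, not through both sgNTC ones. With no filter, 9 of the 10 higher regions were still called.

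How many of these calls stood depended on the method. With DESeq2 size factors in place of TMM, 0 of the 10 passed, though their log2 fold changes moved little. They ran from 1.54 to 2.50, against 1.59 to 2.55 with TMM. The test with limma-voom kept Flg2 alone. The DESeq2 Wald test kept 5 of them, Flg2, Nxn, 0610010F05Rik and the regions near Dyrk1a and on chromosome 14. Without sgNTC-2 only the region near Slfn2 passed, without sgNTC-1 none did, and without sgPrdm12-2 Flg2 and Nxn did. With total counts or the authors' constants all 10 passed, beside 219 and 619 broad regions called higher.

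**Figure D5:**
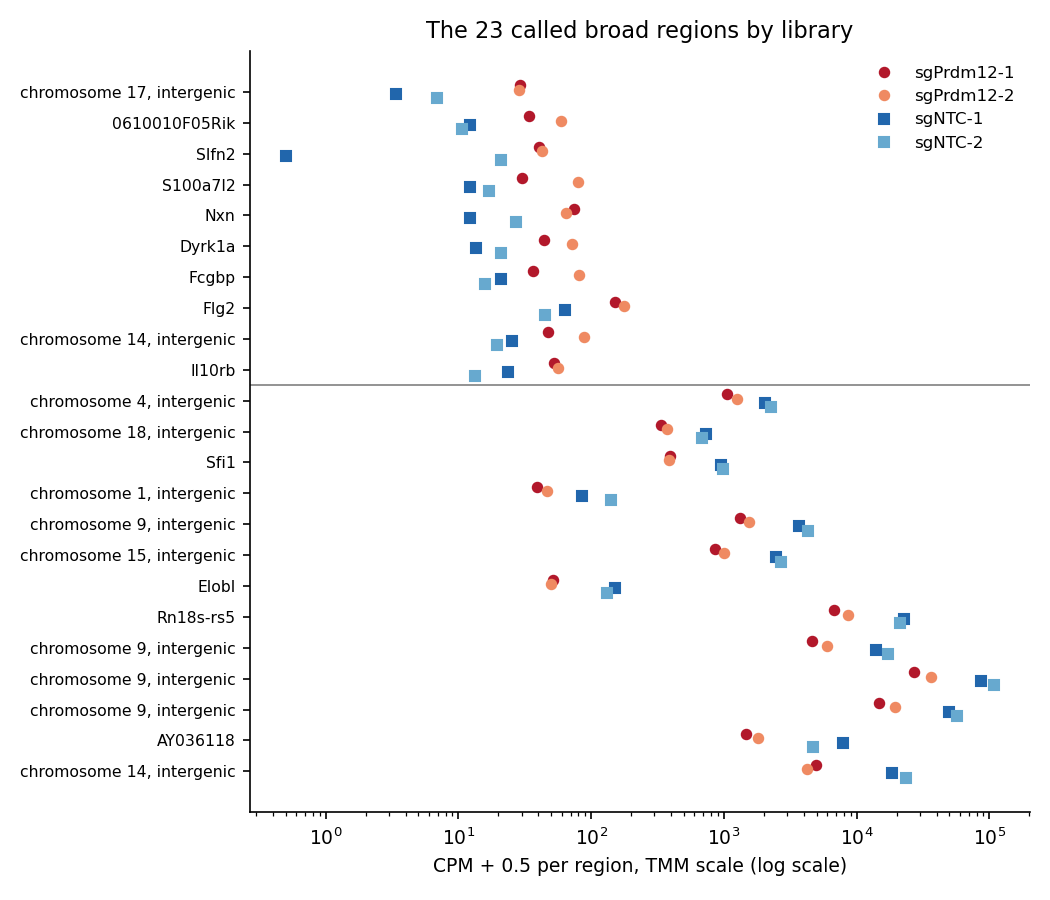
CPM on the TMM scale, plus 0.5 so that 0 can be drawn on the log axis, in each library at the 23 called broad regions, with 10 higher in sgPrdm12 above the line and 13 lower below it, ordered by log2 fold change. Circles are sgPrdm12 and squares sgNTC libraries, and the groups do not overlap in any row. The rows were chosen by the test on these same counts, so that separation adds no support. Of all tested regions, 20.1% separate with sgPrdm12 above and 16.4% with it below.

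Most of the 13 lower regions were deep: 11 of the 30 broad regions with a mean of over 500 reads were among them. Those 30 had a median log2 fold change of -0.64. Among the 774 others, 10 were higher and 2 lower, near Elobl and on chromosome 1, and the median was 0.32. Over all tested regions of any depth, 0.377% were lower. The share among narrower regions of over 500 reads was not counted, so these numbers do not set broad regions apart from other deep ones. The 500-read limit was chosen after the values were seen, and the reads that set it are those compared. Of the 30, 10 are the neighbouring regions over Sfi1, whose own median was -0.64. Another 4 lie together at the start of chromosome 9, and 2 are the ribosomal RNA-related ones on chromosome 17, so the 30 are not separate places. Of the 28 broad regions that start within the first 4 Mb, 7 were called lower (25%) and 0 higher, 22 were below 0, and the median was -0.58. Of all 295 tested regions that start there, of any width, 30 were called lower (10.2%) and 0 higher, and the median was -0.35. With the authors' constants the median of the 28 was 0.44. These 28 include the 10 over Sfi1, all below 0 with 1 called lower. They also include the 4 in the first 32.8 kb of chromosome 9, all called lower. Neighbouring regions of a locus are not separate observations.

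All 4 broad regions in the first 32.8 kb of the listed chromosome 9, from 3000125 to 3032947, were lower, and no gene of the table lies there. Their reads summed to 134975 and 96819 in sgPrdm12-1 and sgPrdm12-2 and 106014 and 147119 in sgNTC-1 and sgNTC-2. In CPM the sums were 47840 and 63089 in sgPrdm12 and 154501 and 187692 in sgNTC, with no overlap. Their log2 fold changes lay between -1.65 and -1.46, and the deepest, from 3023412 to 3024666, fell by 1.63 (SE 0.19; edgeR, adjusted p = 8.91e-10). It held 76314 and 55435 reads in sgPrdm12 and 59803 and 85360 in sgNTC.

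The largest decrease was at chromosome 14, 19416910 to 19417944, also intergenic. This region held 13882 and 6525 reads in sgPrdm12-1 and sgPrdm12-2 and 12710 and 18448 in sgNTC-1 and sgNTC-2. It averaged 4586 ± 473 CPM in sgPrdm12 and 21029 ± 3544 in sgNTC (SD, n = 2 each), and fell by 2.20 on the log2 scale (SE 0.21; edgeR, adjusted p = 1.42e-12). Both ribosomal RNA-related regions on chromosome 17, which are neighbours, were lower. The 3 beside 5S ribosomal RNA genes on chromosome 8 were not called, with log2 fold changes of 1.34, 0.03 and -0.09. The one where AY036118 and Rn18s-rs5 overlap, at chromosome 17, 39847735 to 39848748, held 4153 and 2779 reads in sgPrdm12 and 5396 and 3661 in sgNTC, and fell by 1.93 (edgeR, adjusted p = 4.63e-09). The widest region, beside it, fell by 1.52 (edgeR, adjusted p = 1.21e-07).

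In genes or near them, 2 more were lower. The last region in Sfi1 held 1104 and 596 reads in sgPrdm12 and 650 and 775 in sgNTC, and fell by 1.31 (SE 0.25; edgeR, adjusted p = 0.000765). A region 985 bp from Elobl, at chromosome 11, 88967916 to 88968884, held 143 and 76 reads in sgPrdm12 and 103 and 102 in sgNTC, and fell by 1.48. The remaining 4 were intergenic. At chromosome 15, 75085503 to 75087045, there were 2425 and 1549 reads in sgPrdm12 and 1696 and 2111 in sgNTC, a fall of 1.47. At chromosome 1, 133594539 to 133595501, there were 108 and 70 reads in sgPrdm12 and 58 and 110 in sgNTC, a fall of 1.43. The smallest called differences were -0.99 at chromosome 18, 3009488 to 3010555 (948 and 575 reads in sgPrdm12, 500 and 538 in sgNTC), and -0.90 at chromosome 4, 3089564 to 3091149 (2969 and 1925 in sgPrdm12, 1411 and 1767 in sgNTC). With the authors' constants these smallest differences came to 0.02 and 0.11, and 6 of the 13 stayed past the threshold: the chromosome 14 region, both ribosomal ones and 3 on chromosome 9. All 13 passed with the DESeq2 Wald test and with limma-voom, and none passed without sgNTC-1 or without sgNTC-2.

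The most covered regions did not all go one way. The pair in 2700054A10Rik, which rank among the 8 densest, held 16589 and 12993 reads and 36123 and 29775 reads in sgPrdm12, and 3554 and 4017 and 7429 and 8506 in sgNTC. Their log2 fold changes were 0.48 and 0.57 with standard errors of 0.21 and 0.20, above 0 in both batches, and neither passed (edgeR, adjusted p = 0.665 and 0.351). By class of place, the 240 regions over protein-coding genes had 5 higher (2.08%), 1 lower (0.417%) and a median of 0.35. Of all tested regions over such genes, 0.206% were higher and 0.411% lower, with a median of -0.01. The 86 over other genes had 0 higher, 2 lower (2.33%) and a median of 0.26, where all tested regions of that class had 0.0853% higher, 0.483% lower and a median of 0.00. The 478 intergenic ones had 5 higher (1.05%), 10 lower (2.09%) and a median of 0.28, where all tested intergenic regions had 0.0719% higher, 0.347% lower and a median of -0.02. By chromosome, the median of the broad regions ran from 0.12 on chromosome 18 to 0.47 on chromosome 2.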

How the data were processed

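For each region and library the table deposited by the authors gives a whole-number read count, not normalized, and a normalized signal. Tested on the values, the authors multiplied each library's counts by a single constant to make the deposited signal: 0.638 for sgPrdm12-1, 1.12 for sgPrdm12-2, 1.29 for sgNTC-1 and 1.09 for sgNTC-2. The sources used here do not say where the constants come from. Per the submitters' processing notes, the tools were Trimmomatic, Bowtie2, MACS2 and DiffBind, with no version, and the build GRCm39. However, regions at Rpph1 (chromosome 14, 50807452 to 50807710) and Rmrp (chromosome 4, 43492831 to 43493000) lie inside those genes at their GRCm38.p6 positions in the RefSeq table, so coordinates were read as GRCm38 and are printed as listed. Whether starts count from 0 or 1 is unknown.

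Members, lists and the naming rule were chosen with earlier results of these data known. The rule names the 10 widest broad regions, the 8 densest and 4 sparsest per kb, and the 15 widest over protein-coding genes. It also names those called with a mean count of at least 20, up to 10 in each direction. The lower ones on chromosomes 4 and 18 were added after their values were seen. Regions at the width threshold and those in up to 8 chains of 3 or more, with the most regions, complete it. The table has no gene column, so a region took the RefSeq gene it overlapped, protein-coding first, or else the nearest within 5 kb.

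Every region was tested in 1 fit with edgeR 4.0.16 (quasi-likelihood, two-sided; limma 3.58.1, R 4.3.3), with TMM factors (1.31 and 1.17 in sgPrdm12, 0.846 and 0.770 in sgNTC), filterByExpr, no block, and a Benjamini-Hochberg adjusted p under 0.05 over 37390 regions. Standard errors come from the log2 fold change and the root of the quasi-F statistic. CPM divides the count by the TMM-corrected library size and multiplies by 1000000. Differences within a batch use a prior count of 2. By the labels, both replicates 1 are batch 1 and both replicates 2 are batch 2, so the numbers pair the libraries; replicate differences of the groups correlated at 0.0024 over regions. Alternatives were DESeq2 1.42.0 (size factors and Wald test), total counts, the authors' constants, a replicate block, no filter, leaving out each library or the 10 most covered regions, limma-voom, an adjusted p under 0.1 and other widths. The fit was tested on simulated data. That run drew every region with the same variability setting, so it does not vouch for the calls here.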

Additional observations from a re-analysis of the deposited data

How the results depend on the processing

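The count of broad regions called higher, 10, came to 0 with DESeq2 size factors, 219 with total counts, 619 with the authors' constants, 4 without the 10 most covered regions, 6 with the DESeq2 Wald test and 1 with limma-voom. Leaving out 1 library gave 1 to 17. The count called lower, 13, came to 8 with DESeq2 size factors, 6 with the authors' constants and 5 without the 10 most covered regions, and to between 0 and 18 when 1 library was left out. Of the 13, 5 are themselves among the 10 most covered regions, and 3 of the 8 others lost the call without those 10. At a width of 600 bp or more there were 16 higher and 25 lower, and at 1000 bp or more 6 and 8. Over all tested regions, DESeq2 size factors called 3 higher and 57 lower, total counts 936 and 79, and the authors' constants 7765 and 52, against 41 and 141.

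The median log2 fold change of 0.30 was 1.32 under the authors' constants, 0.87 under total counts, 0.13 to 0.35 when 1 library was left out, 0.21 at 600 bp or more and 0.40 at 1000 bp or more. The difference in read share of -5.50 points was -14.93 at 600 bp or more and 0.28 without the 10 most covered regions. Protein-coding spans were overlapped by 240 regions, by 712 at 600 bp or more and by 93 at 1000 bp or more. With a replicate block, 12 broad regions were higher and 16 lower with a median of 0.31; the 23 called regions all passed. Of the 23, 2 reversed, both with the authors' constants: the chromosome 18 region to 0.02 and the chromosome 4 region to 0.11. The cause was not tested where no value is given. Precision is limited by 2 libraries a group and by sgNTC depth, with 10 reads or fewer at 88 and 63 broad regions.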

Other observations

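The sex chromosomes, which the width rule left out, held 32 more regions of 800 bp or more on X, of 2258, and 3 on Y, of 19. None was called in either direction, where 0.110% of all tested regions were called higher and 0.377% lower. Their median log2 fold changes were 0.11 on X and -0.07 on Y. The widest on Y, 1840 bp near Gm33272, held 974 and 620 reads in sgPrdm12-1 and sgPrdm12-2 and 284 and 306 in sgNTC-1 and sgNTC-2. A region of 1553 bp in Gm52481 held 815 and 617 reads in sgPrdm12 and 120 and 159 in sgNTC, with a log2 fold change of 0.87 (edgeR, adjusted p = 0.222). On X the widest, 1303 bp at Gm21711, held 312 and 208 reads in sgPrdm12 and 114 and 111 in sgNTC, with a log2 fold change of -0.32.

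Of the 30 broad regions with a mean of over 500 reads, 7 stood outside the naming rule. The lower ones on chromosomes 4 and 18 are described above, and the other 5 were chosen here after their values were seen. The deepest of them, at chromosome 6, 29747882 to 29748951, lay in Smo, which encodes the Hedgehog signal transducer Smoothened, and held 6978 and 4589 reads in sgPrdm12 and 1581 and 1681 in sgNTC. The lncRNA gene Gm40237 held 4829 and 3900 in sgPrdm12 and 1069 and 1305 in sgNTC. At the start of chromosome 10, a region from 3112300 near Gm3318 held 4285 and 3909 in sgPrdm12 and 877 and 1032 in sgNTC, and one from 3116117 near 9230019H11Rik held 2829 and 2709 in sgPrdm12 and 584 and 641 in sgNTC. The fifth, at chromosome 16 from 3233508, held 986 and 729 in sgPrdm12 and 213 and 299 in sgNTC. None of the 5 passed, with log2 fold changes of 0.30, 0.40, 0.65, 0.73 and 0.25.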
